A study of Homo sapiens with 4 samples.

Results

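The subject here was the set of genes that encode the subunits of the respiratory chain and ATP synthase in LoVo cells, an established human colon adenocarcinoma line. The members were the protein-coding genes of GENCODE 29 whose symbols began with MT-ND, MT-CO, MT-CYB, MT-ATP, NDUFA, NDUFB, NDUFC, NDUFS, NDUFV, UQCR, COX4 to COX8 or ATP5, without the NDUFAF assembly factors. No measured value entered that rule, which found 100 of the 58825 gene rows, 13 on the mitochondrial genome and 87 in the nucleus. MET+ denotes LoVo cells with the WT genotype, which the sample descriptions name as a GFP control. MET-KO denotes LoVo cells in which the MET gene, encoding the receptor for hepatocyte growth factor, was knocked out with CRISPR/Cas9. Each group held 2 libraries of total RNA, named biological replicates, from cells grown in the same serum-containing medium. Per the study's methods knock-out clones were picked singly and grown apart, and the sources used here do not say whether both MET-KO libraries came from 1 clone, so p-values measure the spread between these libraries, and the knock-out and any other difference between the clones compared cannot be told apart.

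The 4 libraries held 8429142 to 10286552 counts, each count being a 3′ sequencing tag assigned to a gene. MET itself was counted 2794 and 3272 times in MET+ and 861 and 965 in MET-KO (log2 fold change -1.96 ± 0.09 SE, adjusted p = 1.49e-18 by edgeR's quasi-likelihood test). The libraries differed beyond MET: genes of chromosome Y took 57 and 45 counts in MET+ and 7200 and 7330 in MET-KO, and of 9 colon epithelial markers tested 7 were lower and 1, CDX2, was higher in MET-KO. Of the defining markers, CDH17 (212 and 229 counts in MET+) and CEACAM5 (392 and 487) were at 0 counts in both MET-KO libraries, which allows up to 3 counts in each, LGALS4 and VIL1 had 1 to 3 counts there, and EPCAM and KRT18 had 1988 counts or more in every library. Among 11 markers of fibroblasts, immune and endothelial cells, 8 had at most 7 counts in any library, and COL3A1, with 4 and 5 counts in MET+ and 24 and 26 in MET-KO, was the only one called. The part of these differences in the results below was not tested.

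Electrons from NADH enter the chain at complex I and pass through ubiquinone to complex III, cytochrome c and complex IV, which hands them to oxygen. Protons pumped on the way drive complex V, the ATP synthase. Most subunits are made from nuclear genes and imported. A small core of each of complexes I, III, IV and V is encoded by the mitochondrial genome. Its transcripts are long precursors cut mostly at tRNAs into mRNAs, most of which carry short poly(A) tails. The libraries were made with a 3′ kit that starts copying from poly(A), so a count depends on the tail or another stretch of A in the RNA as well as on the amount of RNA.

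For that reason the runs of A inside the 13 mitochondrial genes are shown first. The longest run of A reached 6 to 8 bases in 6 of the genes and 3 to 5 bases in the other 7, and the boundary was chosen after the values were seen. The 6 longest runs follow with 10 bases on each side, from the GENCODE 29 transcripts on GRCh38, plus strand, with the run in capitals.
MT-ND1 (chrM:4166-4191): acctcctatgAAAAAActtcctacca
MT-ND2 (chrM:4595-4621): agttctaaccAAAAAAAtaaaccctcg
MT-CO1 (chrM:6682-6708): actactccggAAAAAAAgaaccatttg
MT-ATP8 (chrM:8487-8512): ccataaaaatAAAAAAttataacaaa
MT-ND4 (chrM:11022-11048): cactatcacgAAAAAAActctacctct
MT-ND5 (chrM:12408-12435): taaccctaacAAAAAAAActcatacccc
For contrast, these are the longest runs in the 2 genes that differed most between MET-KO and MET+ on this genome, MT-ATP6 on the plus strand and MT-ND6 on the minus strand.
MT-ATP6 (chrM:8880-8904): ctctaagattAAAAAtgccctagcc
MT-ND6 (chrM:14343-14365): gctgtgggtgAAAgagtatgatg

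All 13 mitochondrial genes passed the filter on low counts. MT-ND6, MT-ATP6, MT-CYB, MT-ND3 and MT-CO2 were higher in MET-KO, MT-ND1, MT-CO1 and MT-ND4L were lower, and 5 genes did not pass the test (edgeR, adjusted p at or under 0.05). Over all 13801 genes tested, 27.2% were called higher and 26.9% lower, so that 5 of 13 higher (38.5%) and 3 of 13 lower (23.1%) stood on either side of a background in which 7467 genes were called. The median log2 fold change of the 13 was 0.04, beside 0.01 for all genes tested. In 9 of the 13 the groups did not overlap, meaning that both libraries of 1 group lay above both of the other. That held for 10435 of all 13801 genes tested, so lack of overlap does not set a gene apart.

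MT-ND6, a membrane subunit of complex I and the only protein gene read from the light strand (chrM:14149-14673, minus strand), gave 80.2 and 109 CPM in MET+ and 243 and 186 CPM in MET-KO. CPM is counts divided by library totals scaled by TMM (a trimmed mean of gene ratios). The groups did not overlap, and the fold was 2.26 (log2 fold change 1.18 ± 0.12 SE, adjusted p = 2.44e-10). The setting for strand in the counting was not given in the sources used here. Without it light-strand RNA cannot be told apart from heavy-strand RNA of the same stretch. Whether the MT-ND6 tags started at a poly(A) tail was not tested. MT-ATP6, the ATP synthase subunit that forms the proton channel with the ring of c subunits (chrM:8527-9207, plus strand), had 13244 and 15589 CPM in MET+ and 27732 and 24236 CPM in MET-KO, 1.8 times as much in MET-KO (log2 fold change 0.85 ± 0.12 SE, adjusted p = 2.01e-07). MT-CYB, the cytochrome b of complex III (chrM:14747-15887, plus strand), had 6572 and 7667 CPM in MET+ and 10889 and 10585 CPM in MET-KO (log2 fold change 0.59 ± 0.11 SE, adjusted p = 2.06e-05). In each of these genes the groups did not overlap, and the call held when any 1 library was left out.

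MT-ND3, another membrane subunit of complex I, and MT-CO2, the subunit of complex IV that takes electrons from cytochrome c, differed by a like amount. MT-ND3 gave 10801 and 11406 CPM in MET+ and 15805 and 14836 CPM in MET-KO (log2 fold change 0.46 ± 0.11 SE, adjusted p = 4.92e-04). MT-CO2 gave 7429 and 8214 CPM in MET+ and 11068 and 10507 CPM in MET-KO (log2 fold change 0.46 ± 0.11 SE, adjusted p = 4.11e-04). MT-CO3, which completes the mitochondrial core of complex IV, gave 12039 and 13065 CPM in MET+ and 14914 and 14272 CPM in MET-KO and did not pass the test (log2 fold change 0.22 ± 0.11 SE, adjusted p = 0.091), although its groups did not overlap.

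For the 3 genes called lower, the call depended on a single library. In each the groups did not overlap, and the log2 fold change stayed negative whichever library was left out. MT-ND1, a complex I subunit at the ubiquinone site, had 4401 and 5682 CPM in MET+ and 4109 and 3380.3 CPM in MET-KO (log2 fold change -0.43 ± 0.11 SE, adjusted p = 0.00197). MT-CO1, which holds the oxygen-binding site of complex IV, had 2209.6 and 2849 CPM in MET+ and 2080.3 and 1762 CPM in MET-KO (log2 fold change -0.40 ± 0.11 SE, adjusted p = 0.00263). MT-ND4L, a small complex I subunit, had 1255 and 1431 CPM in MET+ and 1109 and 997 CPM in MET-KO (log2 fold change -0.35 ± 0.10 SE, adjusted p = 0.00256). MET+ replicate 2 was the highest library in all 3, and without it none of the 3 was called, with log2 fold changes of -0.24 for MT-ND1, -0.21 for MT-CO1 and -0.26 for MT-ND4L (adjusted p from 0.134 to 0.274). DESeq2 called MT-ND4L but not MT-ND1 (adjusted p = 0.147) or MT-CO1 (adjusted p = 0.143).

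MT-ND2, MT-ND4, MT-ND5 and MT-ATP8 showed no difference that could be read at this replication, since their MET+ libraries lay apart by more than the groups did. MT-ATP8, a small ATP synthase subunit, had 487 and 845 CPM in MET+ and 703 and 663 CPM in MET-KO. MT-ND2, a proton-pumping subunit of complex I, had 10880.3 and 15665 CPM in MET+ and 15152 and 11723 CPM in MET-KO. Their log2 fold changes, from 0.00 for MT-ND4 to 0.04 for MT-ATP8, changed sign with the library left out, as given in the closing part. MT-ATP8 shares chrM:8527-8572 (46 bases) with MT-ATP6, and MT-ND4L shares chrM:10760-10766 (7 bases) with MT-ND4. Tags in those bases belong to 2 genes. The genes of each pair lie on the same mRNA, so their values are not those of separate transcripts. A tag at the tail of such an mRNA falls in MT-ATP6 or MT-ND4. Why the values differ within a pair was not tested.

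**Figure D1:**
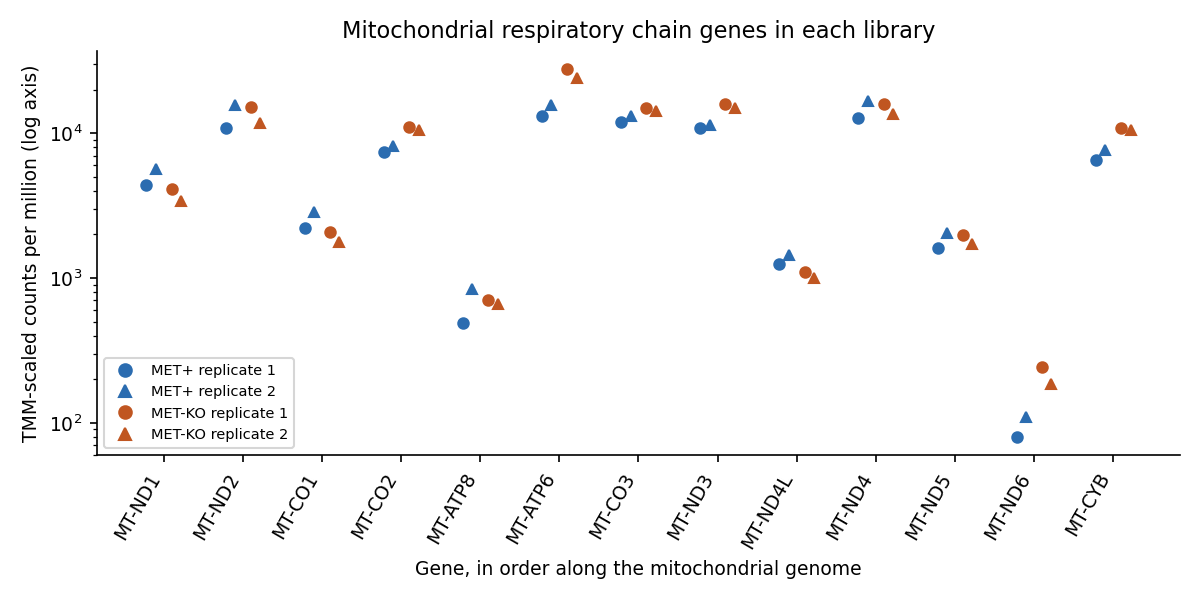
TMM-scaled CPM (log axis) of the 13 mitochondrial genes in genome order, 1 point per library, blue for MET+ and orange for MET-KO, circles for replicate 1 and triangles for replicate 2. MT-ATP6, MT-ND6, MT-CYB, MT-CO2 and MT-ND3 are drawn with the orange points above the blue ones, while in MT-ND2, MT-ND4 and MT-ND5 the MET+ points bracket or overlap those of MET-KO.

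The genes divided along the runs of A shown above, at the boundary chosen after the values were seen. The 6 genes with a run of 6 or more A had log2 fold changes from -0.43 to 0.04, with 0 called higher by edgeR or DESeq2, 2 lower and 4 not called. Of these 6, 0 were higher at an unadjusted p under 0.05 either, but MT-ND2 passed as higher without MET-KO replicate 2 and as lower without MET-KO replicate 1, and MT-ATP8 as higher without MET+ replicate 2 and as lower without MET+ replicate 1. The 7 genes without one ran from -0.35 to 1.18, with 5 called higher, 1 lower and 1 not called, and MT-ND4L was the member of this second set that fell. The replicates divided the same way in part: MET+ replicate 2 exceeded replicate 1 by 1.28 to 1.73 times in CPM in the 6 genes with a run and by 1.06 to 1.36 times in the others, where MT-ND6 was the highest. The MET-KO replicates did not divide this way, with replicate 1 over replicate 2 at 1.06 to 1.29 times in the genes with a run and 1.03 to 1.30 times in the others. The ribosomal RNA MT-RNR2, which is no member, holds 4 such runs and was lower in MET-KO (log2 fold change -0.70 ± 0.12 SE, adjusted p = 5.18e-06), and MT-RNR1, with 1 run, was not called (log2 fold change -0.02 ± 0.11 SE, adjusted p = 0.919). Whether tags started at these inner runs was not tested, since the deposited tables give counts per gene and no positions.

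**Figure D2:**
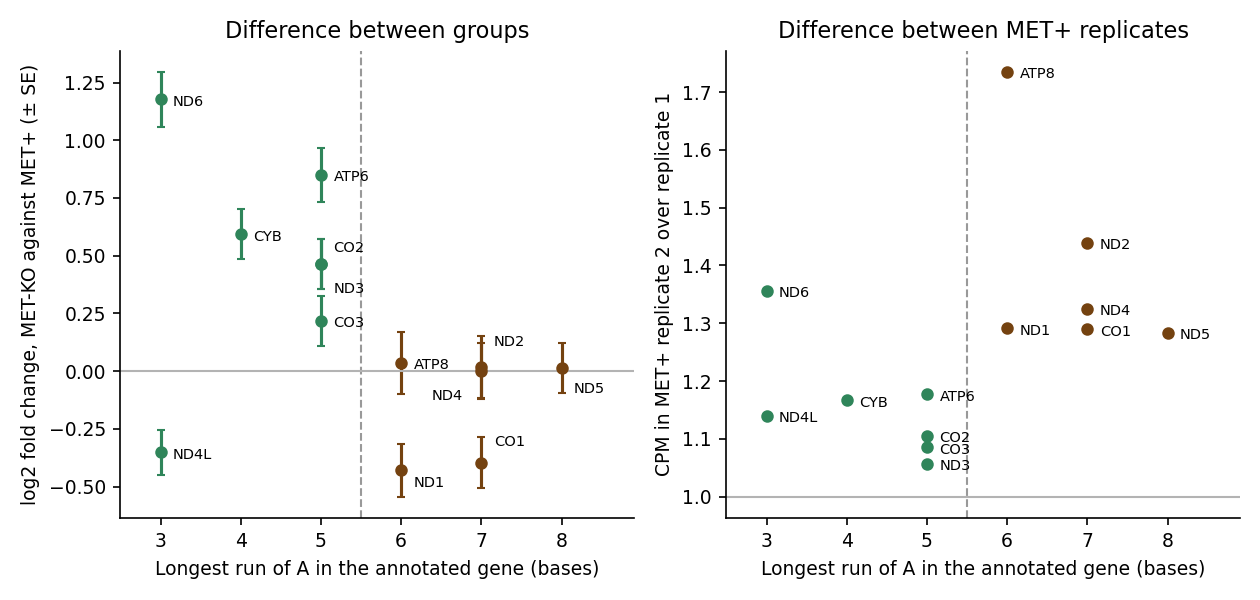
The 13 mitochondrial genes by the length in bases of their longest run of A, against the log2 fold change on knock-out with its standard error (left) and the ratio of CPM between the MET+ replicates (right), with genes holding a run of 6 or more A in brown and the others in green. No gene to the right of the dashed line lies above 0.04 on the left axis, and 6 of the 7 genes to its left lie at 0.22 or higher.

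Summed over the 13 genes, the mitochondrial mRNAs took 8.21% and 9.60% of all counts in MET+ and 12.2% and 11.5% in MET-KO. The means were 8.91% ± 0.98 and 11.9% ± 0.51 (SD, n = 2 each), and the groups did not overlap (two-sided exact permutation test, p = 0.33, the smallest that 2 against 2 libraries can give). The boundary at 6 A was chosen after the values were seen, so a division of the share by it is no separate result. The part carried by the 7 genes without a run of 6 or more A was 5.05% and 5.44% against 8.23% and 8.03%. The part carried by the 6 genes with a run was 3.17% and 4.16% against 4.01% and 3.49%, where the groups overlapped. Counting every gene of the mitochondrial chromosome, ribosomal and transfer RNAs included, the share was 12.4% and 14.2% in MET+ and 15.4% and 14.9% in MET-KO. Shares are relative, and more mitochondrial RNA per cell cannot be told apart here from less RNA of other kinds. The 87 nuclear genes together took 2.59% and 2.52% of counts in MET+ and 2.36% and 2.32% in MET-KO, again without overlap. Per nuclear subunit count there were thus 3.18 and 3.81 mitochondrial counts in MET+ and 5.20 and 4.96 in MET-KO, a difference of 0.55 on the log2 scale (exact permutation p = 0.33).

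Of the 87 nuclear genes, 79 passed the filter, and the other 8 had at most 3 counts in any library. Those 8 were the tissue-restricted isoforms COX4I2, COX6A2, COX7A1, COX7B2 and COX8C, the NDUFA4 relative NDUFA4L2, and the readthrough genes NDUFC2-KCTD14 and ATP5MF-PTCD1. Among the 79, 36 were lower in MET-KO (45.6%, beside 26.9% of all genes tested), 12 were higher (15.2%, beside 27.2%) and 31 did not pass the test. Scaled by library totals alone, which moved the median log2 fold change of all genes upward by 0.10, to 0.11, the split was 26 lower and 15 higher. The shares of all genes given above belong to TMM scaling and are no background for that split. The median of the 79 was -0.18, beside 0.01 for all genes tested, and 56 of the 79 lay below 0. The groups did not overlap in 66 of the 79, beside 10435 of the 13801 genes tested. Another annotated gene overlaps the last 500 exonic bases on the same strand in 21 of the 79, COX6A1, ATP5MC2 and COX6B2 among them, and of the 58 without such an overlap 27 were lower and 9 higher.

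In complex I, which has the most nuclear subunits, 15 of 37 were lower (40.5%, beside 26.9% of all genes tested) and 7 higher (18.9%, beside 27.2%). Of the core subunits, which carry the flavin and the iron-sulphur clusters, NDUFV1, NDUFS7, NDUFS3 and NDUFS1 were called lower, and NDUFS8 and NDUFV2 were not called. NDUFV1, which binds NADH, had 135 and 157 CPM in MET+ and 98 and 93 CPM in MET-KO (log2 fold change -0.62 ± 0.10 SE, adjusted p = 2.78e-06). NDUFV2 was counted only 50 to 76 times per library, and another annotated gene overlaps its 3′ end on the same strand. NDUFS1 passed narrowly, at adjusted p = 0.0281, and was not called when any 1 library was left out.

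The 30 accessory subunits of complex I, which stabilise the core and do not carry electrons, went both ways. Of them 10 were lower (33.3%), 7 higher (23.3%) and 13 not called. These shares lay near those of all genes tested, at 26.9% lower and 27.2% higher. NDUFA9, which lies near the ubiquinone site (chr12:4649095-4694317, plus strand), was the lowest, with 138 and 150.5 CPM in MET+ and 79.2 and 71.4 CPM in MET-KO (mean 144 ± 8.82 against 75.3 ± 5.56 SD, n = 2 each, log2 fold change -0.94 ± 0.10 SE, adjusted p = 8.54e-10). NDUFS6 and NDUFS4, both of the NADH-oxidising arm, followed at -0.80 ± 0.10 and -0.67 ± 0.11 (log2 ± SE), and NDUFA6 at -0.67 ± 0.09. At the other end NDUFA5 had 121 and 123 CPM in MET+ and 206 and 189 CPM in MET-KO (log2 fold change 0.70 ± 0.09 SE, adjusted p = 1.16e-07), a fold of 1.62. NDUFA11, a membrane arm subunit, had 83.6 and 84.8 CPM in MET+ and 145 and 125 CPM in MET-KO (log2 fold change 0.68 ± 0.10 SE, adjusted p = 6.04e-07). The membrane arm subunits NDUFB2, NDUFB3 and NDUFB5 and the NADH-arm subunit NDUFV3 stood at 0.58, 0.52, 0.51 and 0.51. In all of these the groups did not overlap, as in 10435 of the 13801 genes tested. NDUFA11, NDUFA9 and NDUFB2 each have another annotated gene over their 3′ end on the same strand, and reads cannot be told apart there.

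Complex III had 5 of 9 nuclear subunits lower (55.6%, beside 26.9% of all genes tested) and 1 higher (11.1%, beside 27.2%). UQCRQ, a small subunit near cytochrome b, gave 903 and 893 CPM in MET+ and 571 and 527 CPM in MET-KO (log2 fold change -0.71 ± 0.09 SE, adjusted p = 4.83e-08). UQCRC1 and UQCRC2, the paired core proteins, were both lower, at -0.66 and -0.32, as was the Rieske iron-sulphur protein UQCRFS1 at -0.52. UQCR10, a small subunit at the edge of the complex, was higher at 0.34 (adjusted p = 0.00313). UQCRH was lower at -0.23 (adjusted p = 0.0317), a call lost under several alternatives, and its near copy UQCRHL had 40 to 55 counts and was not called. Cytochrome c1, encoded by CYC1 and left out by the rule on symbols, was lower as well (log2 fold change -0.71 ± 0.10 SE, adjusted p = 1.14e-07).

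Complex IV was the most one-sided, with 10 of 13 tested nuclear subunits lower (76.9%, beside 26.9% of all genes tested) and 1 higher (7.69%, beside 27.2%). COX5A, a subunit on the matrix side, had 510.4 and 503 CPM in MET+ and 273 and 258 CPM in MET-KO, 0.524 times as much in MET-KO (mean 507 ± 5.37 against 266 ± 10.4 SD, n = 2 each, log2 fold change -0.93 ± 0.09 SE, adjusted p = 1.07e-10). COX6A1, the widely expressed form of subunit VIa, had 389 and 404 CPM in MET+ and 235 and 227 CPM in MET-KO (log2 fold change -0.78 ± 0.09 SE, adjusted p = 5.42e-09). COX4I1, COX6C, COX7C, COX8A, COX5B and COX6B1 were lower by smaller amounts, from -0.51 for COX6C to -0.23 for COX6B1. The call of COX6B1 held in 1 of the 4 fits that left out a library and was lost with library totals (adjusted p = 0.19) and with a filter of 10 counts in each library (adjusted p = 0.057), that of COX5B held in 2, and that of COX8A in 3. COX7B and COX7A2 did not pass the test. NDUFA4, first named as a complex I subunit and now placed in complex IV, was the member called higher (log2 fold change 0.32 ± 0.09 SE, adjusted p = 0.00323), though not without MET+ replicate 2 (adjusted p = 0.082).

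The isoforms that differ between tissues were nearly silent on both sides. COX6B2, the testis form of subunit VIb, was the exception that passed the filter, with 14 and 28 counts in MET+ and 7 and 2 in MET-KO (log2 fold change -2.40 ± 0.60 SE, adjusted p = 0.00107). At so few counts the size is poorly fixed, and without MET-KO replicate 2 the call was lost (log2 fold change -1.72, adjusted p = 0.083). COX7A2L, which links complexes III and IV into supercomplexes, was lower at -0.38 (adjusted p = 0.0011), and without MET+ replicate 1 this call was lost (log2 fold change -0.28, adjusted p = 0.061).

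**Figure D3:**
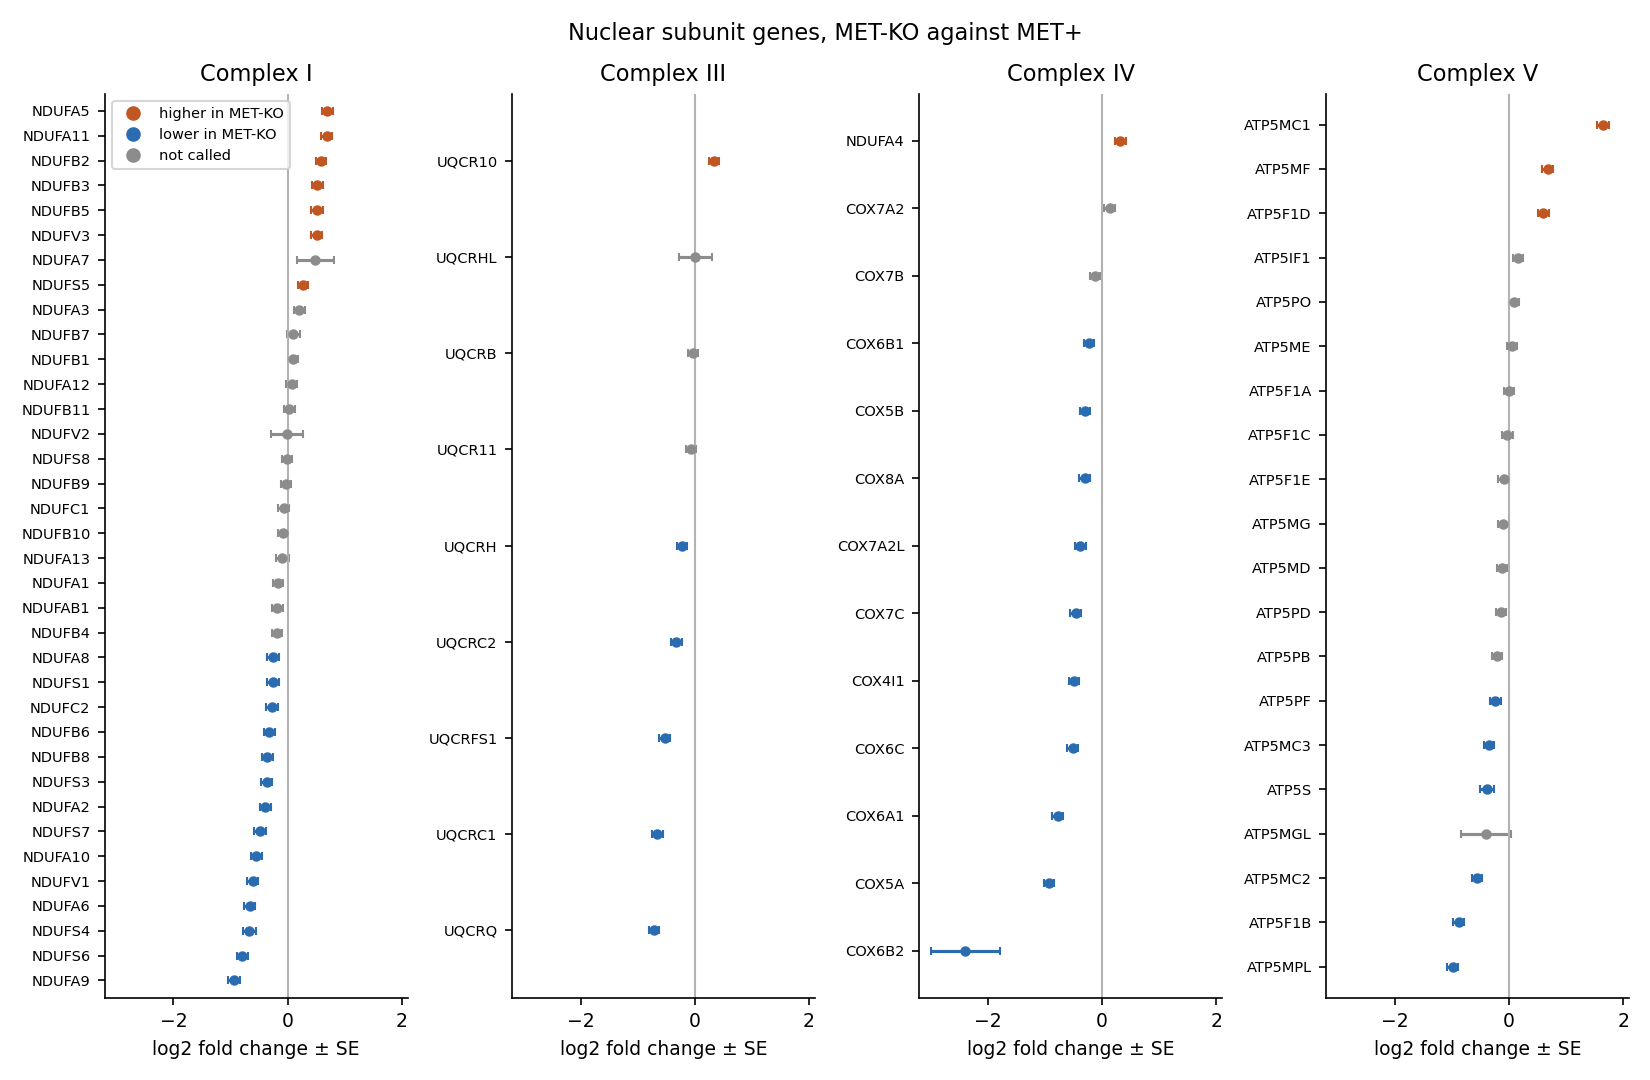
Log2 fold change on knock-out with its standard error for the nuclear genes tested, in 1 panel per complex, orange for higher, blue for lower and grey for not called by edgeR. Complex IV has 10 blue and 1 orange point, and ATP5MC1 stands furthest to the right.

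Complex V had 6 of 20 nuclear members lower (beside 26.9% of all genes tested), 3 higher (beside 27.2%) and 11 not called, and held both the largest rise and 2 of the 5 largest falls. Its catalytic head did not move together. ATP5F1B, the catalytic beta subunit (chr12:56638175-56646068, minus strand), had 1574 and 1554 CPM in MET+ and 870.4 and 827 CPM in MET-KO, 0.542 times as much in MET-KO (log2 fold change -0.88 ± 0.09 SE, adjusted p = 7.38e-10). ATP5F1A, the alpha subunit that alternates with beta around the head, was not called, at -0.01 ± 0.09 (counted 4282 and 5122 times in MET+ and 5356 and 5556 in MET-KO). ATP5F1D, the delta subunit of the central stalk, was higher with 75.8 and 85.8 CPM in MET+ and 125 and 120.2 CPM in MET-KO (log2 fold change 0.60 ± 0.10 SE, adjusted p = 5.03e-06). The gamma and epsilon subunits ATP5F1C and ATP5F1E were not called. Of the 4 peripheral stalk genes only ATP5PF was called, lower at -0.24, and this held in 1 of the 4 fits that left out a library.

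Among the small membrane subunits, ATP5MPL, a small proteolipid, had 709 and 771 CPM in MET+ and 404 and 343 CPM in MET-KO (mean 739.9 ± 43.7 against 373 ± 43.7 SD, n = 2 each, log2 fold change -0.99 ± 0.10 SE, adjusted p = 1.18e-10). ATP5MF, subunit f, went the other way with 254 and 264 CPM in MET+ and 418 and 409 CPM in MET-KO (log2 fold change 0.67 ± 0.09 SE, adjusted p = 9.32e-08), and its 3′ end is shared with PTCD1 and the readthrough gene ATP5MF-PTCD1. ATP5ME, ATP5MG, ATP5MD and ATP5MGL were not called. The inhibitor gene ATP5IF1 was not called at 0.15 ± 0.09.

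The ring of c subunits that turns as protons pass is encoded by 3 nuclear genes whose products differ in the import sequence and end as the same mature protein. ATP5MC1 (chr17:48892765-48895871, plus strand) had 40.5 and 49.7 CPM in MET+ and 148 and 135 CPM in MET-KO, 3.13 times as much in MET-KO (mean 45.1 ± 6.5 against 142 ± 8.83 SD, n = 2 each, log2 fold change 1.65 ± 0.11 SE, adjusted p = 8.62e-15), the largest rise among all 92 members tested. ATP5MC2 had 508 and 529 CPM in MET+ and 365 and 335 CPM in MET-KO (log2 fold change -0.57 ± 0.09 SE, adjusted p = 2.61e-06). ATP5MC3 had 841 and 811 CPM in MET+ and 667 and 630 CPM in MET-KO (log2 fold change -0.35 ± 0.09 SE, adjusted p = 0.00152). The last 2 thus went against the first, and none of the 3 overlapped between groups. Of the counts on the 3 genes, ATP5MC1 held 2.92% and 3.57% in MET+ and 12.5% and 12.3% in MET-KO. Their summed level was 1389 ± 0.75 CPM in MET+ and 1139.9 ± 55.8 in MET-KO (SD, n = 2 each), so the rise of ATP5MC1 was smaller in CPM than the drop of its partners. A match to TGACGTCA, the letters of the cAMP response element, starts 57 bases before the RefSeq start of ATP5MC1, in capitals here on GRCh38.p14.
ATP5MC1 (chr17:48892720-48892747, plus strand): ggggaatcgaTGACGTCAaccaatgggg
Of all 35116 RefSeq windows from 250 bases before to 50 after a start, 1.85% hold these letters on either strand, and 4 of the 83 windows of members do. Besides ATP5MC1 these belong to NDUFB2, called higher, NDUFA10, called lower, and ATP5ME, not called. Whether the site has a part in the values was not tested. Over the genes tested that have a window, 29.4% of 381 with the letters were called higher and 27.0% of 9527 without.

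The direction of the members differed between chromosomes. All 4 tested members on chromosome 7 (ATP5MF, NDUFA4, NDUFA5 and NDUFB2) were higher, on a chromosome where the median of 673 genes tested was 0.50, and all 5 on chromosome 5 (COX7C, NDUFA2, NDUFS4, NDUFS6 and UQCRQ) were lower, where the median of 617 genes was -0.43. On chromosome 12, with a median of -0.32, ATP5F1B, ATP5MC2, COX6A1 and NDUFA9 were lower and NDUFA12 was not called. COX5A, lower, is on chromosome 15 (median -0.43) and ATP5MPL and ATP5S, both lower, are on chromosome 14 (median -0.51), where NDUFB1 was not called at 0.10. The members on chromosome 21 (median 0.30) split, with NDUFV3 higher, ATP5PF lower and ATP5PO not called. Of the 10 named members with the largest falls, 8 were on these chromosomes, and COX6B2 and NDUFA6 were not. On the autosomes and X whose median lay within 0.2 of that of all genes, 58 members were tested, with a median of -0.14. Of the 58 members, 23 were lower (39.7%, beside 26.9% of all genes tested), 7 higher (12.1%, beside 27.2%) and 28 not called. ATP5MC1 is among these, on chromosome 17 (median 0.05), as are NDUFA11 and ATP5F1D on chromosome 19 (median 0.01). The copy number of these chromosomes was not measured, and its part in the values was not tested.

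**Figure D4:**
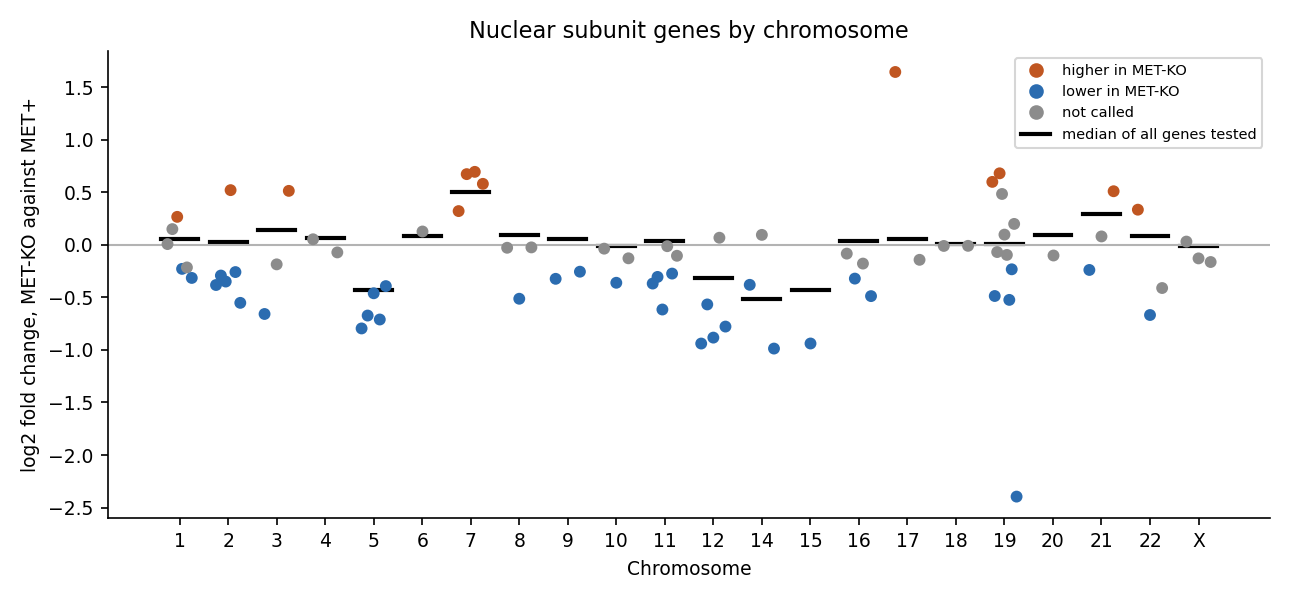
Log2 fold change on knock-out of the 79 nuclear genes tested, by chromosome and spread sideways for legibility, with black bars for the median of all genes tested on that chromosome. The members of chromosomes 5 and 7 lie around their chromosome medians of -0.43 and 0.50, and ATP5MC1 at 1.65 lies far above the median of chromosome 17.

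One start-site motif was found among members called lower and not among the others. The 10 letters in capitals below, a known binding sequence of the transcription factor YY1, were searched on both strands. Of members with a RefSeq window, 7 of the 30 called lower held them, and none of the 27 not called or the 7 called higher. The 7 called higher are too few for their lack of a match to tell much. The 7 sites follow with 10 bases on each side, 5′ to 3′ on the strand of the gene, GRCh38.p14, with the match in capitals.
NDUFA9 (chr12:4649114-4649143, plus strand): attgtgggaaAAGATGGCGGctgccgcaca
NDUFS4 (chr5:53560650-53560679, plus strand): tgcctgcagcAAGATGGCGGcggtgtcaat
NDUFA6 (chr22:42090728-42090757, minus strand): atgctttggcAAGATGGCGGggagcggcgt
UQCRC1 (chr3:48609604-48609633, minus strand): ctgcagctggAAGATGGCGGcgtccgtggt
NDUFS7 (chr19:1383914-1383943, plus strand): ggccgaggccAAGATGGCGGtgctgtcagg
NDUFB8 (chr10:100529835-100529864, minus strand): gaagaaggtgAAGATGGCGGtggccagggc
ATP5PF (chr21:25735092-25735121, minus strand): aggcgaagaaAAGATGGCGGaggctgtgcc
In 6 of the 7 the match begins 11 to 26 bases after the start, and that of ATP5PF lies before it. The log2 fold changes of these genes ran from -0.94 for NDUFA9 to -0.24 for ATP5PF, the call of ATP5PF held in 1 of the 4 fits that left out a library, and NDUFA9 and NDUFS4 are on chromosomes with low medians. Members with a RefSeq window numbered 69, with 83 windows, of which 9.64% held the letters, beside 1.20% of all windows. Over all genes tested with a window, 28.5% of 333 genes with the letters and 28.6% of 9575 without were called lower, and 19.2% with and 27.4% without were called higher. YY1 itself was counted 1170 and 1365 times in MET+ and 819 and 932 in MET-KO (log2 fold change -0.76 ± 0.10 SE, adjusted p = 3.79e-08), on chromosome 14. This motif was singled out among 5 searched after the values were seen, and whether YY1 or these sites have a part in the values was not tested.

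The other motifs of this gene set were spread over the calls. The NRF1 site was in 18.1% of member windows against 5.78% of all, and in 5 members called lower, 2 higher and 7 not called. CCGGAAGT, the ETS site bound by GABPA, was in 13.3% against 4.14%, and in 6 members lower, 0 higher and 5 not called. CACGTG, the E-box, was in 8.43% of member windows and 7.26% of all.

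Genes that act on the chain without belonging to it by symbol were taken from lists. Of all genes tested, 26.9% were called lower and 27.2% higher, beside which the counts of each list are to be read. Complex II and the cytochromes c and c1 had 4 of 6 lower (CYC1, SDHA, SDHB and SDHD) and 1 higher, SDHC at 0.27. Of 18 complex I assembly factors 5 were lower (27.8%) and 4 higher (22.2%), near the shares of all genes. They ran from NDUFAF1 at -1.09 to NDUFAF6 at 1.81. NDUFAF6 was counted 130 and 112 times in MET+ and 438 and 565 in MET-KO. Assembly factors of complexes III and IV had 9 of 28 lower (32.1%), led by COX11, a copper chaperone, at -1.01, and 5 higher (17.9%). Of 5 complex V assembly factors, TMEM70 and ATPAF2 were lower and ATPAF1 and FMC1 higher, FMC1 at 1.27 on chromosome 7.

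Mitochondrial ribosomal proteins belong to the ribosome that translates the mitochondrial mRNAs. Of their 75 genes tested, 33 were lower (44.0%, beside 26.9% of all genes tested) and 8 higher (10.7%, beside 27.2%). The median was -0.25. MRPS10 was the lowest at -1.27 ± 0.12 and MRPS6, on chromosome 21, the highest at 2.03 ± 0.10, counted 667 and 753 times in MET+ and 3328 and 3464 in MET-KO. Of 26 genes for mitochondrial transcription and RNA handling 4 were lower and 4 higher (15.4% each, beside 26.9% and 27.2% of all genes tested). LRPPRC, which with SLIRP holds and protects mitochondrial mRNAs, was counted 1639 and 1709 times in MET+ and 864 and 1007 in MET-KO (log2 fold change -1.07 ± 0.10 SE, adjusted p = 2.91e-11), and SLIRP stood at -0.70 ± 0.09. MTPAP, the mitochondrial poly(A) polymerase, named after its value was seen, was lower at -0.48 (adjusted p = 0.00305). The polymerase POLRMT and the factor TFAM were not called. MTERF1 was the highest of this list at 0.79 on 56 to 135 counts.

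Of 13 genes for the copying and upkeep of mitochondrial DNA, 3 were lower (23.1%, beside 26.9% of all genes tested) and 4 higher (30.8%, beside 27.2%). POLG, the polymerase subunit, stood at -1.08 ± 0.16 and RRM2B, a ribonucleotide reductase subunit, at 1.19 ± 0.14. Among 10 nuclear regulators tested, YY1, PPRC1 and ESRRA were lower and MYC higher at 0.34. NRF1 and GABPA were not called, and PPARGC1A, the gene of the coactivator known as PGC-1 alpha, had at most 1 count in any library. These lists too hold genes of chromosomes with shifted medians, such as YY1 on chromosome 14 and MTERF1 on chromosome 7.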

How the data were processed

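Total RNA of the 4 libraries was made into sequencing libraries with a QuantSeq 3′ mRNA kit (FWD). The submitters' processing notes name cutadapt 1.16, STAR 2.5.4a, featureCounts 1.6.2 and the build GRCh38, and the authors deposited raw counts per Ensembl gene for each library. Strand and multi-mapping settings were not given in the sources used here. Gene names came from GENCODE 29, which held 58552 of 58825 IDs, and 99 spike-in rows were at 0. Depth was 8429142 to 10286552 counts, and the precision of a value is limited by counting error and by 2 libraries per group.

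Genes were filtered with filterByExpr, scaled by TMM and tested with the quasi-likelihood test of edgeR 4.0.16 in R 4.3.3 on all 13801 genes kept, with Benjamini-Hochberg adjustment over them and a threshold of 0.05. A fold change is MET-KO over MET+. On simulated 2-fold changes of 200 genes edgeR recovered 160 with 1 false call. The simulation gave all genes 1 common spread and left the rest unchanged, unlike the data, so these figures do not carry over to the calls here. Single values were compared by exact permutation. Named were the 13 mitochondrial members, the 10 largest called non-overlapping nuclear changes each way, isoform sets, and up to 3 called genes each way per list. Genes outside this rule are named to complete a complex, a chromosome or a set of motif sites. Members, lists and tests were chosen with earlier results of these data known. The values of 1 member are not reported here, though counts over groups include it. Overlaps were looked for in the last 500 exonic bases. Promoter windows came from RefSeq on GRCh38.p14. Alternatives covered scaling, filters, DESeq2 1.42.0, thinning, pseudogene counts, a replicate block and leaving out each library.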

Additional observations from a re-analysis of the deposited data

Results flagged for a closer look

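With 2 libraries per group no library could be judged as standing apart from its group. A signal appeared in a gene that is no member and entered only the alternative with pseudogene counts added: MTATP6P1, a nuclear pseudogene copy of MT-ATP6 (chr1:633696-634376), was counted 3263 and 5674 times in MET+ and 8425 and 6773 in MET-KO, with a log2 fold change of 0.57 ± 0.12 SE (edgeR, adjusted p = 2.17e-04), beside 0.85 for MT-ATP6. Of the 15 tested pseudogenes of members it was the one called higher, and the counts cannot be told apart from reads of the near-identical mitochondrial gene.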

How the results depend on the processing

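Under scaling by DESeq2 size factors, scaling on nuclear genes alone, an open filter, a filter of 10 counts per library, thinning and added pseudogene counts, the numbers of called nuclear and mitochondrial members stayed within 1.5 times the values given, and so did the 7467 genes called in all. The median of the nuclear members was -0.076 with library totals alone, beside 0.11 for all genes tested under that scaling. DESeq2 left 1 mitochondrial member lower. Without the highest member of each genome the log2 ratio differed by 0.39, and over all genes of the mitochondrial chromosome the share differed by 1.83 percentage points in place of 2.97. Leaving out 1 library at a time gave 0 to 4 mitochondrial members lower, with 0 without MET+ replicate 2, a mitochondrial median from -0.15 to 0.30 and a nuclear median from -0.24 to -0.12. Nuclear members lower then numbered 26 to 38, and 31 of the 48 nuclear calls held in all 4 of these fits.

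Alternatives chosen after seeing the data kept the mitochondrial members without a run of 6 or more A, which gave 1 called lower, a median of 0.46 and a log2 ratio difference of 0.76, or the nuclear members on chromosomes near the median of all genes, which gave 7 higher and 23 lower. Signs turned when 1 library was left out for 4 mitochondrial and 10 nuclear members not called and for 0 called. Among the genes named by rule, the log2 fold change ran from -0.22 to 0.30 for MT-ND2, -0.30 to 0.48 for MT-ATP8, -0.19 to 0.21 for MT-ND4, -0.15 to 0.20 for MT-ND5 and -0.069 to 0.091 for UQCRHL, lowest without MET+ replicate 1 and highest without MET+ replicate 2. MT-ND4 was also at -0.0032 with no filter and -0.0011 with DESeq2. The cause was not tested in any of these. Among named members called, 446 comparisons with an alternative kept the call and 21 lost it, none turning sign.

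Deviations of same-numbered libraries were not correlated over all genes (r = -0.03 over 13801 genes). Genes with few counts weigh as much as others in this value, so it cannot tell whether same-numbered libraries were handled together. With a replicate block 12 nuclear members were higher, 30 lower, 5 mitochondrial members higher and 3 lower, of 7055 genes called.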
